A study of Mus musculus with 16 samples.

Results

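The comparison described here set TTPΔARE mice against wild-type mice under the condition that did not include adrenalectomy. It took the 4 libraries of group TTP-S and the 4 of group WT-S, 8 of the 16 libraries of the series, by the group names in the columns of one table of gene counts. The genotype difference was measured across every gene that passed a filter on low counts, 15385 of the 24964 genes in the table.

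Every library came from a 4 mm biopsy of the stomach, taken at the lesser curvature of the gastric corpus, the acid-secreting part of the organ. All mice were female and 8 weeks old. WT-S mice were wild-type C57BL/6, and TTP-S mice carried the TTPΔARE allele on a congenic C57BL/6 background. The labels name spasmolytic polypeptide-expressing metaplasia (SPEM), a mucous metaplasia of the corpus glands, as the treatment of both S groups, and do not state whether these mice underwent any operation. The other 8 libraries (WT-A and TTP-A) came from mice of the same genotypes with gastric inflammation induced by adrenalectomy, the removal of the adrenal glands. TTPΔARE is an allele of the whole animal, so all cells of the biopsy carried it. Nothing in the labels says that each library is a separate mouse, so p-values below measure the spread between these libraries.

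Tristetraprolin (TTP), encoded by Zfp36, is a zinc-finger protein that binds AU-rich elements in the 3′ untranslated region (UTR) of mRNAs and recruits deadenylases such as the CCR4-NOT complex, so that the mRNA is degraded. Its best known targets encode inflammatory mediators, among them TNF. TTP also binds an AU-rich element in its own mRNA, and the TTPΔARE allele removes that element, which stabilises Zfp36 mRNA. The enzymes and fibrous proteins of the extracellular matrix, which recur below, are made mainly by fibroblasts and vascular cells.

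The sequences below show the AU-rich motif in the gene that the allele alters and in 3 genes with lower values in TTP-S. The motif was also present in genes with higher values, as counted below. Capitals mark the nonamer TTATTTATT, or the first core heptamer TATTTAT where no nonamer is present. The Ier3 window ends in another heptamer, which is left in lower case. Each was read 5′ to 3′ on the coding strand from GENCODE M21 transcripts (GRCm38, the mm10 build), and none is a measured binding site. The labels do not give the position of the deletion, so which of these bases the allele lacks was not determined here.

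Zfp36 at chr7:28376953-28376977, minus strand: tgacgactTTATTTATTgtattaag

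Apold1 at chr6:134985220-134985244, plus strand: ccatatctTTATTTATTtaaaatta

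Slc45a3 at chr1:131982298-131982322, plus strand: ttaatttaTTATTTATTtaacaaat

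Ier3 at chr17:35822484-35822506, plus strand: ctaattaaTATTTATgtatttat

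The 8 libraries held 17453930 to 25582609 counts each and detected 17607 to 18082 genes. Pgc, which encodes the pepsinogen C of chief cells, took 7.48% to 13.6% of the counts. The library WT-S 1 stood apart, with 108 genes over 2-fold from the mean of the other WT-S libraries. By the same measure within its own group, WT-S 2 had 73 and the remaining S libraries had 12 to 26. Most results that rest on WT-S 1 are given with and without it. Values are CPM, counts per 1000000 counts of the library, with library totals scaled by TMM (the trimmed mean of M values). A gene passed when its Benjamini-Hochberg adjusted p in edgeR's quasi-likelihood test was under 0.05, in a fit of all 16 libraries with 1 mean per group. Among the A libraries, WT-A 3 and WT-A 4 deviated with the GC content of transcripts (Spearman's rho 0.72 and 0.74, against at most 0.30 in absolute size in the S libraries). The same contrast is therefore also given from 14 libraries without that pair, and from the 8 S libraries alone.

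Zfp36 mRNA was 1.97-fold higher in the TTP-S stomach than in WT-S. Zfp36 (ENSMUSG00000044786.6, minus strand of chr7:28376784-28380253) was at 65.8, 55.1, 63.1 and 64.0 CPM in the WT-S libraries and at 115, 121, 129 and 124 CPM in the TTP-S libraries. Every TTP-S library lay above every WT-S library. The means were 62.0 ± 4.73 and 122 ± 6.11 CPM (SD, n = 4 each), a log2 difference of 0.98 (SE 0.097; edgeR adjusted p = 0.00044). The exact two-sided permutation test of 4 against 4 gave p = 0.0286, the smallest it allows. With any 1 of the 8 libraries left out, the log2 difference stayed between 0.93 and 1.01. In the A libraries, Zfp36 was at 72.0 ± 11.9 CPM in WT-A and 123 ± 9.54 CPM in TTP-A (SD, n = 4 each). The genotype difference there was 0.77 on the log2 scale (edgeR adjusted p = 0.00159), and the difference between the 2 conditions did not pass the test (-0.21, edgeR adjusted p = 0.455).

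**Figure D1:**
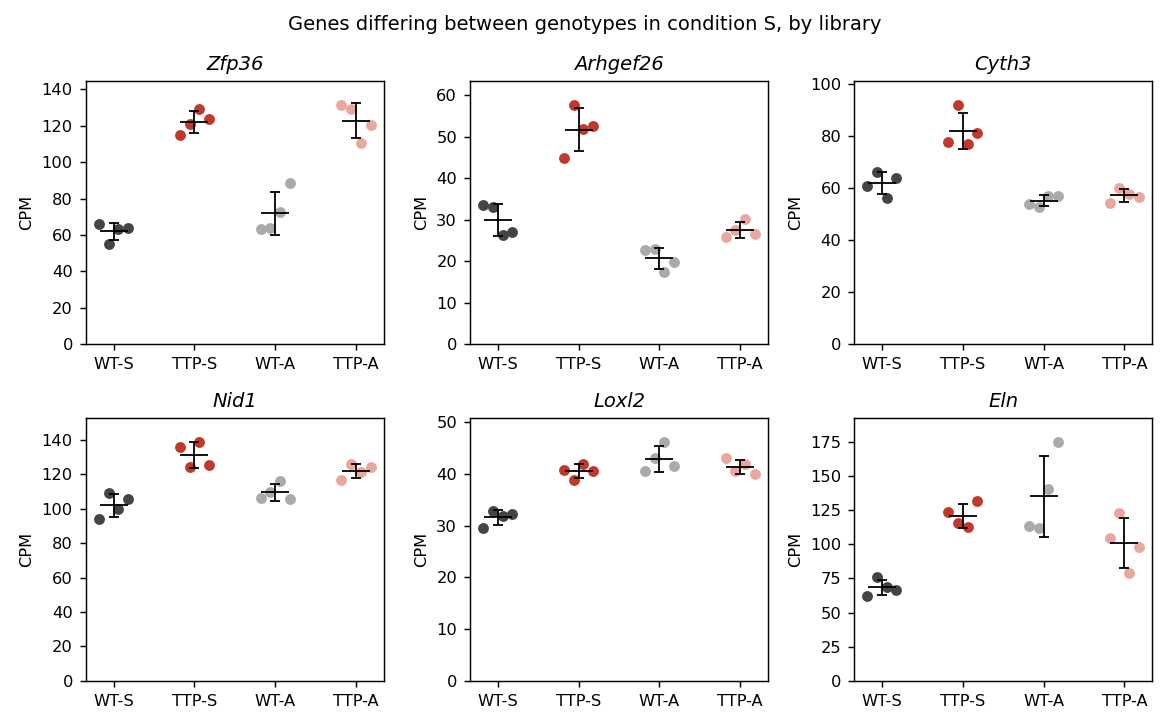
Normalised level in CPM of the 5 genes that passed between TTP-S and WT-S, and of Eln, in each of the 16 libraries by group (points), with mean and SD (black). The TTP-S points lie above all WT-S points in each of the 6 panels, and for Eln the order of the genotype means is opposite in the A groups.

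Beyond Zfp36, 4 genes rose in the fit of 16 libraries, and none fell. The 5 that passed were 0.0325% of the genes tested. At an unadjusted p under 0.05 there were 1153 genes, 615 of them higher and 538 lower. Other tests of the 16 libraries passed more genes, 67 higher and 33 lower with DESeq2's Wald test, and 129 higher and 46 lower with limma's voom. The 14-library fit passed 65 genes (0.422%), of which 47 were higher (0.305%) and 18 lower (0.117%). The 8-library fit passed 42 (0.273%), of which 38 were higher (0.247%) and 4 lower (0.026%). All 5 genes passed in all 3 fits, and 32 genes passed in both of the smaller ones. The 4 genes besides Zfp36 were sensitive to single libraries. Of the 8 fits that each left out 1 library, Arhgef26 passed in 3, Cyth3 and Loxl2 in 2 and Nid1 in 1. Leaving out WT-S 3, WT-S 4, TTP-S 2, TTP-S 3 or TTP-S 4 left 1 gene in the 16-library fit, and leaving out WT-S 1 left 2. Without WT-S 2 or TTP-S 1 there were 15 and 12 genes.

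**Figure D2:**
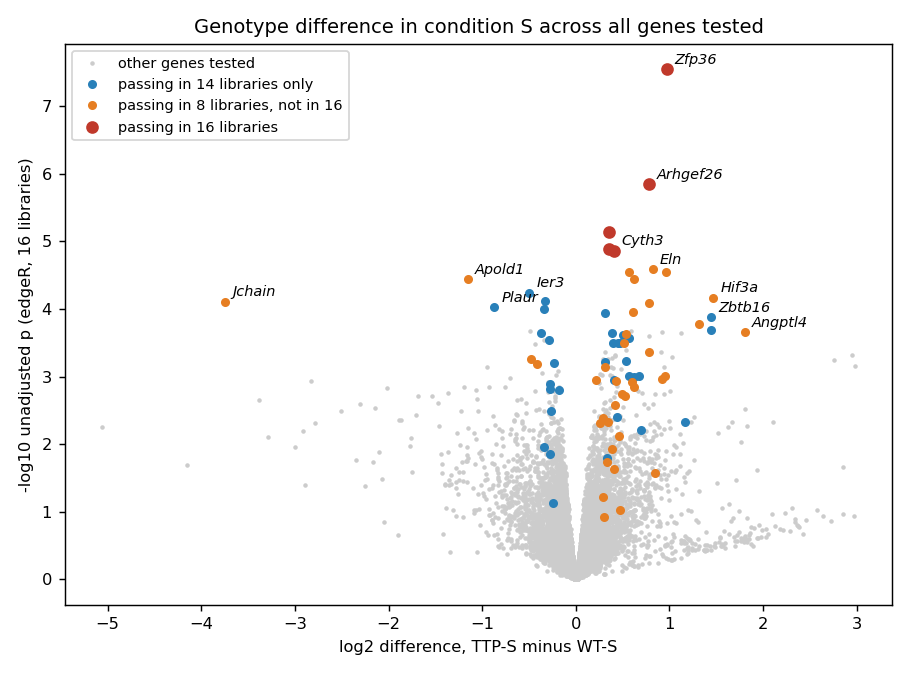
The log2 difference between TTP-S and WT-S (horizontal axis) against -log10 of the unadjusted p (vertical axis, edgeR with 16 libraries) for 15385 genes, with genes passing in each of the 3 fits in colour. Coloured points to the right of 0 outnumber those to the left, with Zfp36 highest.

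Arhgef26 (chr3:62338344-62462221), which encodes an exchange factor for the small GTPase RhoG, was at 33.6, 33.1, 26.2 and 27.0 CPM in the WT-S libraries and at 44.97, 57.6, 51.8 and 52.5 CPM in the TTP-S libraries. The groups did not overlap, and the log2 difference was 0.79 (SE 0.105; edgeR adjusted p = 0.0109). It also passed in the A libraries, by 0.41 (edgeR adjusted p = 0.0393). Cyth3 (chr5:143622447-143710250), encoding a cytohesin that activates ARF GTPases, averaged 61.7 ± 4.23 CPM in the WT-S group and 81.8 ± 6.95 CPM in the TTP-S group (SD, n = 4 each), with no overlap (log2 difference 0.41; edgeR adjusted p = 0.0423). In a list of 15 genes around cytohesins, ARF6 and RhoG, these were the 2 that passed in 16 libraries, against 0.0325% of all genes tested. The list was put together with both genes in view, so this count was set in advance. The median of the list was -0.04, and -0.01 without WT-S 1.

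The other genes that rose encode matrix components. Loxl2 (chr14:69609068-69695834), a lysyl oxidase that cross-links collagen, was at 29.6, 32.9, 31.9 and 32.3 CPM in the WT-S libraries and at 40.8, 38.8, 42.0 and 40.7 CPM in the TTP-S libraries. Its lowest TTP-S library was above its highest WT-S library, and the log2 difference was 0.36 (SE 0.055; edgeR adjusted p = 0.0377). Nid1 (chr13:13437551-13512269), which encodes nidogen-1, a linker of laminin and collagen IV networks, averaged 102 ± 6.69 CPM in the WT-S libraries and 131 ± 7.38 CPM in the TTP-S libraries (SD, n = 4 each), also without overlap (log2 difference 0.36; edgeR adjusted p = 0.0423).

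The matrix genes listed here were mostly higher in TTP-S by a small amount. Of 60 genes in 3 lists (basement membrane, elastic fibres with lysyl oxidases, and fibroblast genes with fibrillar collagens), 57 were higher, with a median log2 difference of 0.22, against a median of -0.001 over all genes tested. Loxl2 and Nid1 passed in the 16-library fit, 13 of the 60 passed in the 14-library fit and 10 in the 8-library fit, all higher, against 0.0325%, 0.305% and 0.247% of all genes tested that passed as higher in these fits. The groups did not overlap in 26 of the 60, all higher in TTP-S, against 3.5% of all genes tested that were higher without overlap. The members and lists were chosen with earlier results of these data known, so these shares are not a test. With any 1 library left out of the 8, the median stayed between 0.21 and 0.26. In these bulk samples, more cells of a type and more RNA per cell cannot be told apart. With offsets that remove the dependence on GC content, 56 of the 60 were higher and 8 passed as higher, against 0.13% of all genes.

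Eln, encoding elastin, had the largest difference among the 60. It was at 62.5, 75.8, 68.8 and 66.2 CPM in the WT-S libraries and at 123, 116, 112 and 132 CPM in the TTP-S libraries, with no overlap. The log2 difference was 0.82 (SE 0.14), with an edgeR adjusted p of 0.0544 in 16 libraries, 0.00545 in 14 and 0.00114 in 8. Mfap4, a microfibril-associated glycoprotein, averaged 45.8 ± 7.96 CPM in the WT-S group and 78.6 ± 4.94 CPM in the TTP-S group (SD, n = 4 each; log2 difference 0.78; edgeR adjusted p = 0.153, 0.0161 and 0.0301 in 16, 14 and 8 libraries). Fbn1, the fibrillin of elastic microfibrils, differed by 0.45 on the log2 scale and passed in the 14-library fit alone (edgeR adjusted p = 0.023). Of 19 tested genes of the elastic fibre and lysyl oxidase list, 17 were higher, and Fbln1 had the lowest value at -0.24.

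All 17 genes of the fibroblast and fibrillar collagen list were higher, with a median of 0.22. Col3a1, which encodes the chain of type III collagen, was at 592, 636, 621 and 640 CPM in the WT-S libraries and at 970, 873, 913 and 792 CPM in the TTP-S libraries. No TTP-S library reached down to the WT-S range (log2 difference 0.51; edgeR adjusted p = 0.127, 0.0121 and 0.0216 in 16, 14 and 8 libraries). Col1a1, a chain of type I collagen, averaged 234 ± 14.4 CPM in the WT-S group and 336 ± 34.6 CPM in the TTP-S group, and Col5a1 at 90.1 ± 6.75 and 121 ± 5.35 CPM (SD, n = 4 each). Both passed in the 14- and 8-library fits and not in 16 libraries (edgeR adjusted p = 0.266 and 0.312). Genes that passed outside the lists included others with a role in collagen. Plod2, a lysyl hydroxylase, and Adamts2, a procollagen peptidase, were higher by 0.46 and 0.60 on the log2 scale and passed in the 14- and 8-library fits.

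In the basement membrane list, 23 of 24 genes were higher, with a median of 0.21. Col4a1 and Col4a2, the chains of the main collagen IV network, were at 295 ± 12.1 and 274 ± 9.39 CPM in WT-S and at 361 ± 16.9 and 327 ± 4.95 CPM in TTP-S (SD, n = 4 each). Sparc, a collagen-binding matricellular protein, was at 229, 232, 205 and 237 CPM in the WT-S libraries and at 373, 298, 330 and 306 CPM in the TTP-S libraries. In all 3 genes the groups did not overlap, and all 3 passed in the 14- and 8-library fits and not in 16 libraries (edgeR adjusted p = 0.374, 0.385 and 0.119).

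**Figure D3:**
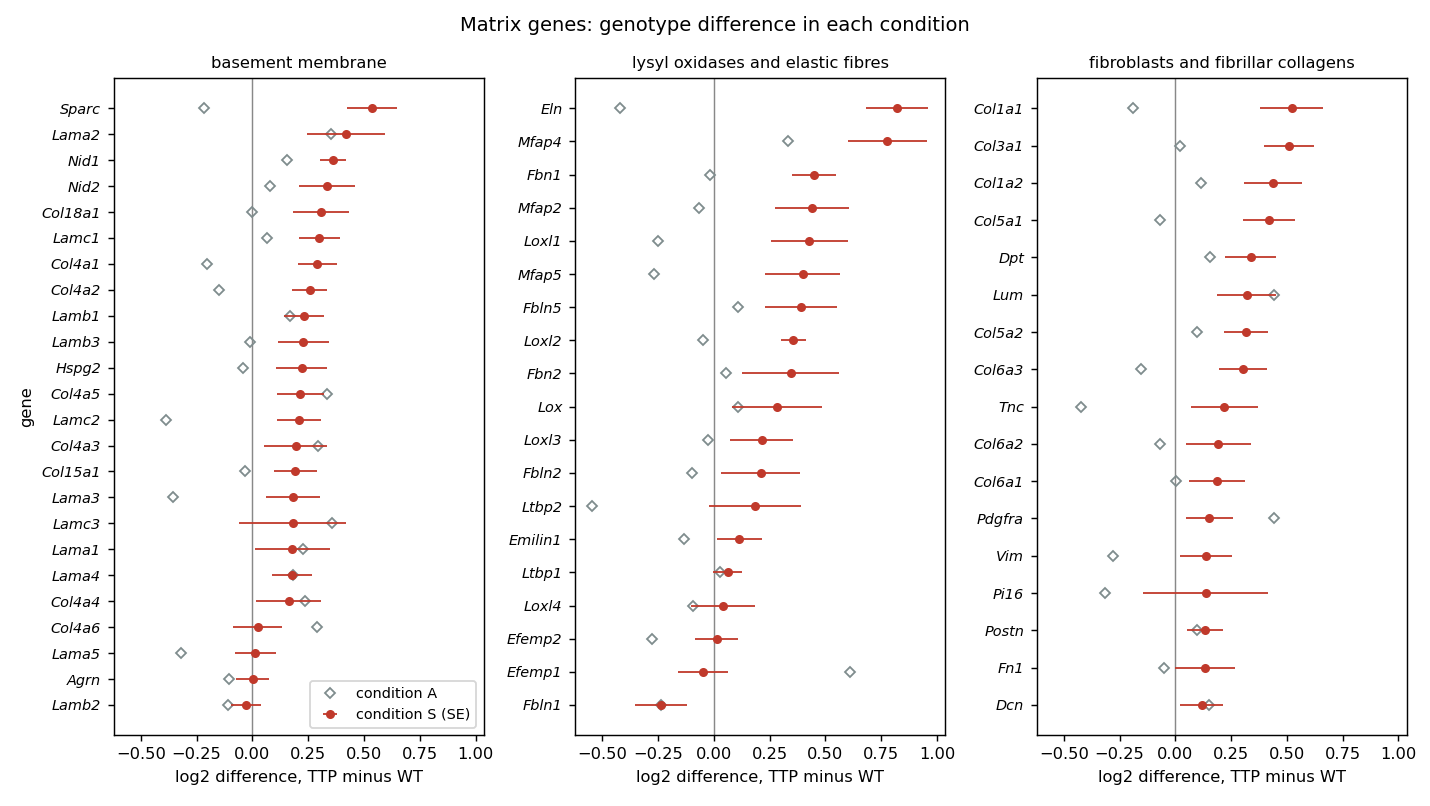
The log2 difference between TTPΔARE and wild type for each of the 60 matrix genes, in condition S (red, with SE) and in condition A (grey diamonds), from the fit of 16 libraries. In condition S 57 of the 60 red points lie above 0, while 27 of the 60 diamonds do. The diamonds include WT-A 3 and WT-A 4, and the median in condition A was -0.02 with that pair and 0.17 without it.

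In the A libraries, which share no library with the S comparison, 27 of the 60 matrix genes were higher in TTP-A, with a median of -0.02 in 16 libraries and 0.17 without WT-A 3 and WT-A 4. For Eln the genotype difference in A was -0.42 on the log2 scale (edgeR adjusted p = 0.0808), and the difference between the conditions passed the test (-1.24, edgeR adjusted p = 0.035, a test that 0.0585% of all genes tested passed, and -0.98, edgeR adjusted p = 0.0171, in 14 libraries). Elsewhere in the lists, Dmbt1, a mucosal glycoprotein in the list of SPEM and mucous neck cells, also differed between conditions. It was at 109, 116, 157 and 137 CPM in the WT-S libraries and at 241, 231, 206 and 307 CPM in the TTP-S libraries. The groups did not overlap, and the log2 difference was 0.92 in S (edgeR adjusted p = 0.215, 0.0739 and 0.0301 in 16, 14 and 8 libraries) and -1.08 in A. The difference between the conditions was -2.00 (edgeR adjusted p = 0.035) in 16 libraries, WT-A 3 and WT-A 4 among them. Of the 38 genes that passed as higher in the 8-library fit, 15 had the same sign in A and 3 passed there with that sign (Zfp36, Arhgef26 and Igf1). Of the 4 that passed as lower, 3 had the same sign in A and Slc45a3 passed there. The share of genes tested that passed in A was 2.87% higher and 2.3% lower. Over all genes tested, 8061 of 15385 had the same sign in S and A in the 16-library fit. These A values include WT-A 3 and WT-A 4, and the counts were not taken without that pair.

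Markers of fat were higher in TTP-S alongside the matrix genes. Of 10 adipose markers, none at 0 in these libraries, 9 were higher, with a median of 0.38, and their summed level was 278 to 331 CPM in WT-S and 345 to 504 CPM in TTP-S, without overlap. Fabp4, a fatty acid carrier of adipocytes, was at 102, 91.7, 93.0 and 109 CPM in the WT-S libraries and at 128, 138, 136 and 183 CPM in the TTP-S libraries, and passed in the 14-library fit alone (edgeR adjusted p = 0.0466). With the score of these markers as a term in the 8-library fit, an alternative chosen after seeing the data, 56 of the 60 matrix genes were higher, with a median of 0.35, and 18 passed as higher. Over all genes tested, 62 (0.403%) passed as higher with that term, against 38 (0.247%) without it. Because the summed markers did not overlap between the genotypes, this term and the genotype cannot be cleanly separated in 8 libraries. With the same term in 16 libraries, 50 of the 60 were higher, with a median of 0.16, and none passed as higher, against 0.026% of all genes. Zfp36 passed with the term in both fits, and Cyth3 in neither (edgeR adjusted p = 0.0743 in 16 libraries and 0.125 in 8). Arhgef26 passed in 16 libraries and not in 8 (edgeR adjusted p = 0.0712), while Loxl2 and Nid1 passed in 8 libraries (edgeR adjusted p = 0.0496 and 0.0217) and not in 16 (edgeR adjusted p = 0.0605 and 0.0532). Of the 38 genes that passed as higher in the 8-library fit without the term, 13 passed with it in 8 libraries, and of the 4 lower ones Jchain alone did. All 42 had the same sign with the term. The summed smooth muscle markers were at 7800 to 8724 CPM in WT-S and 6742 to 9361 CPM in TTP-S, and their median difference was -0.01, with a range of -0.10 to 0.06 when 1 library was left out. The median of 18 endothelial markers was 0.07.

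Genes known to respond to glucocorticoids, the hormones of the adrenal cortex, were mostly higher in TTP-S. Of 15 tested, 13 were higher, with a median of 0.23, and the groups did not overlap in 5, all of them higher, against 3.5% of all genes tested. None passed in 16 libraries, 4 passed as higher in the 14-library fit and 2 in the 8-library fit, against 0.305% and 0.247% of all genes. This list too was chosen with earlier results of these data known. With the adipose term, 12 of the 15 were higher in 16 libraries and 10 in 8 libraries, and none passed as higher in either. Klf9, a Krüppel-like transcription factor, was at 53.5, 68.9, 56.0 and 59.4 CPM in the WT-S libraries and at 79.03, 93.1, 84.7 and 97.2 CPM in the TTP-S libraries. Every TTP-S library was higher (log2 difference 0.57; edgeR adjusted p = 0.0544, 0.0121 and 0.0328 in 16, 14 and 8 libraries). Zbtb16, a zinc-finger repressor, averaged 9.45 ± 2.701 CPM in the WT-S group and 25.8 ± 12.3 CPM in the TTP-S group (SD, n = 4 each), and 1 TTP-S library, at 11.7 CPM, lay within the WT-S range. Fkbp5, a co-chaperone of the glucocorticoid receptor, was at 62.6 ± 14.3 and 108 ± 28.9 CPM, also with overlap, and passed in none of the 3 fits (edgeR adjusted p = 0.121 in 16 libraries). Adamtsl2 and Pdk4 were higher by 1.45 and 0.63 on the log2 scale and passed in the 14-library fit alone. Between A and S within the wild type, 7 of the 15 passed as lower in A and 2 as higher, against 8.99% and 9.8% of all genes tested. Within TTPΔARE 8 passed as lower and none as higher, against 1.35% and 1.55% of all genes. Of 19 circadian clock genes, 14 were higher in TTP-S, with a median of 0.03, and none passed in any of the 3 fits. That median was -0.01 without WT-S 1 and also without TTP-S 3. The part of sampling time in the glucocorticoid list was not tested.

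Further genes with large differences were higher in TTP-S. Cyp1b1, a cytochrome P450, averaged 10.8 ± 0.769 CPM in the WT-S group and 20.95 ± 3.91 CPM in the TTP-S group (SD, n = 4 each; log2 difference 0.96). Hif3a, a hypoxia-inducible factor subunit, was at 2.38 ± 0.441 and 6.61 ± 2.12 CPM (log2 difference 1.47), and Angptl4, an inhibitor of lipoprotein lipase, at 0.943 ± 0.300 and 3.36 ± 0.686 CPM (log2 difference 1.81). Tm4sf5, a tetraspan membrane protein, was at 16.01, 18.7, 16.9 and 20.5 CPM in the WT-S libraries and at 30.5, 30.8, 32.1 and 30.4 CPM in the TTP-S libraries. In these 4 genes the groups did not overlap, and all 4 passed in the 14- and 8-library fits and not in 16 libraries (edgeR adjusted p = 0.0544 to 0.119). With the adipose term in 8 libraries Tm4sf5 still passed (edgeR adjusted p = 0.0168), while Cyp1b1, Hif3a and Angptl4 did not (log2 differences of 0.71, 0.88 and 1.67; edgeR adjusted p = 0.0916, 0.202 and 0.0788).

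The transcripts reported as TTP targets were mostly lower in TTP-S and mostly at low levels. Of 24 in the table, 15 passed the count filter, 11 of these were lower, and their median was -0.16. With 1 library left out it ranged from -0.15, without TTP-S 4, to -0.25, without TTP-S 1. None passed in 16 libraries. Plaur and Ier3 passed as lower in the 14-library fit, against 0.117% of all genes tested. The groups did not overlap in 4 (Plaur, Ier3, Il1b and Ccl2), all lower, against 3.24% of all genes tested that were lower without overlap. Plaur, the urokinase receptor, was at 24.1, 15.1, 22.8 and 17.9 CPM in the WT-S libraries and at 12.7, 7.99, 11.9 and 10.9 CPM in the TTP-S libraries (log2 difference -0.87; edgeR adjusted p = 0.0896, 0.0483 and 0.0714 in 16, 14 and 8 libraries). Ier3, an immediate early gene with 4 heptamers in its 3′ UTR, was at 19.0, 14.7, 17.5 and 18.1 CPM in the WT-S libraries and at 12.03, 10.95, 14.1 and 11.9 CPM in the TTP-S libraries (log2 difference -0.50; edgeR adjusted p = 0.0805, 0.038 and 0.0714). Both were also lower in the A libraries, by -0.75 and -0.38 on the log2 scale (edgeR adjusted p = 0.024 and 0.0297). Over the 15 tested targets the median in A was -0.03, and -0.10 without WT-A 3 and WT-A 4. In 16 libraries 6 of the 15 were higher in TTP-A. There 1 passed as higher and 2, Plaur and Ier3, as lower, against 2.87% and 2.3% of all genes tested.

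Plaur lies on chromosome 7 within 5 Mb of Zfp36, where a congenic line can retain sequence of the donor strain. Of 201 other tested genes in that window, 17 (8.46%) had an unadjusted p under 0.05, against 7.49% of all genes, and Plaur was the 1 that passed in any of the 3 fits. Its annotated 3′ UTR held neither motif. Whether flanking sequence has a part in its difference was not tested.

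The inflammatory mediators on the list were near the limit of detection. Il1b, interleukin-1β, averaged 0.909 ± 0.127 CPM in the WT-S group and 0.516 ± 0.0594 CPM in the TTP-S group, and Ccl2, a chemokine for monocytes, at 0.969 ± 0.445 and 0.491 ± 0.0395 CPM (SD, n = 4 each). Tnf, whose 3′ UTR holds 5 overlapping nonamers, was at 0.111 ± 0.0389 and 0.149 ± 0.0912 CPM, and a difference was not detectable at this depth. Transcripts at higher levels, such as Vegfa (147 ± 17.3 and 132 ± 7.42 CPM), Myc (44.0 ± 4.13 and 39.4 ± 4.96 CPM) and Hif1a (105 ± 8.97 and 96.9 ± 2.51 CPM), overlapped between the genotypes. Of 19 tested chemokine genes, 15 were lower, with a median of -0.23, and none passed in any of the 3 fits. The relatives of TTP, Zfp36l1 and Zfp36l2, differed by 0.06 and -0.21 on the log2 scale without passing. The median over 25 genes of CCR4-NOT and mRNA decay was -0.03, and -0.04 to -0.01 with 1 library left out, and none passed.

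**Figure D4:**
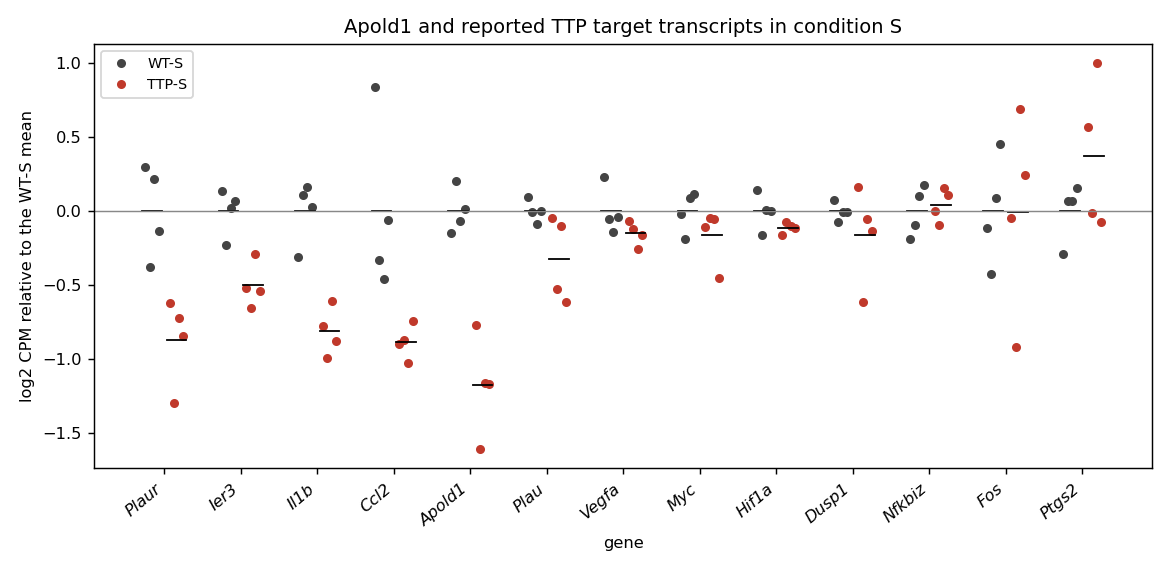
Log2 CPM relative to the mean of the WT-S libraries for 12 reported TTP target transcripts and for Apold1, in each WT-S (grey) and TTP-S (red) library, with group means as black lines. The 2 groups are separate in Plaur, Ier3, Il1b, Ccl2 and Apold1 and overlap in the others.

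Among genes outside that list, Apold1, an endothelial early response gene with 1 nonamer in its 3′ UTR, was at 4.98, 6.36, 5.28 and 5.58 CPM in the WT-S libraries and at 3.24, 1.81, 2.47 and 2.46 CPM in the TTP-S libraries. The groups were separate (log2 difference -1.15; edgeR adjusted p = 0.0558, 0.0205 and 0.0301 in 16, 14 and 8 libraries). Slc45a3, a sugar transporter family member with 2 nonamers, averaged 127 ± 5.10 CPM in the WT-S group and 90.6 ± 9.54 CPM in the TTP-S group, and Shh, the hedgehog ligand that parietal cells secrete, at 79.4 ± 2.45 and 59.8 ± 5.35 CPM (SD, n = 4 each). Both passed in the 14- and 8-library fits and not in 16 libraries (edgeR adjusted p = 0.161 and 0.176). Pdgfb, a growth factor for pericytes, was lower, at -0.33 on the log2 scale, and passed in the 14-library fit alone.

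The AU-rich motifs were counted in the 3′ UTR of the longest coding transcript of 14442 tested genes. The nonamer was present in 1128 of them (7.81%), and their median log2 difference was -0.007, against 0.001 in genes without it. The 245 genes with at least 2 nonamers had a median of -0.02. The heptamer was present in 4257 genes (29.5%), with a median of -0.004 against 0.003 without it. In the 16-library fit it was present in 3 of the 5 genes that passed, Zfp36 among them, and all 5 were higher. It was present in 11 of the 17 genes with a UTR that passed as lower in the 14-library fit and in 15 of the 47 that passed as higher. In the 8-library fit it was present in all 4 that passed as lower (Apold1, Slc45a3, Shh and Jchain) and in 8 of the 38 that passed as higher. With 1 of the 8 libraries left out, the count of genes that passed as lower was 39 without WT-S 2, 7 without WT-S 1 and 3 without TTP-S 1, and it was 0 when any 1 of the other 5 was left out. Genes with the heptamer had longer UTRs, with a median of 2142 bases against 829. Among genes with a UTR over the median length of 1133.5 bases, 6 of 3279 with the heptamer and 2 of 3942 without it passed as lower in the 14-library fit. Among those with shorter UTRs, 5 of 978 with it and 4 of 6243 without it did.

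Of the genes in the parietal, chief, surface mucous and tuft cell lists, which do not include Shh, none passed between the genotypes in any of the 3 fits. The median difference was 0.01 over 13 parietal cell genes, 0.11 over 9 chief cell genes and -0.06 over 10 surface mucous genes. Without WT-S 1 these medians were -0.01, -0.01 and -0.02. The parietal and chief cell medians also turned just below 0 without TTP-S 2 and TTP-S 1 respectively, and the surface mucous median was -0.01 without TTP-S 1. Of 9 tuft cell genes 8 were lower, with a median of -0.17, and -0.08 without WT-S 1 and -0.34 without WT-S 2. Over 15 genes of SPEM and mucous neck cells the median was -0.12, and with 1 library left out it ranged from -0.25, without WT-S 2, to 0.001, without WT-S 1. Of these 15, Dmbt1 alone passed, as higher in the 8-library fit, against 0.247% of all genes tested. Muc6, the mucin of neck cells, was at 2358 CPM in WT-S 1, at 464, 544 and 779 CPM in the other WT-S libraries and at 271 to 474 CPM in TTP-S. Aqp5, an aquaporin of antral-type glands, was at 40.5 CPM in WT-S 1, at 5.46 to 10.1 CPM in the other WT-S libraries and at 4.98 to 6.64 CPM in TTP-S. Both genes were thus far higher in WT-S 1 than in the other 7 libraries, and neither passed. The lesser curvature can border on squamous forestomach, and the summed squamous markers ran from 64.9 to 358 CPM in WT-S and from 152 to 741 CPM in TTP-S. Their median of 1.20 ranged from -0.29, without TTP-S 1, to 2.78, without WT-S 3, with 1 library left out.

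Mast cell and MHC class II genes were mostly lower in TTP-S, and none of them passed in any of the 3 fits. Of 10 mast cell genes, 9 were lower, with a median of -1.08, and -0.53 without WT-S 1. Mcpt1, a mucosal mast cell protease, was at 160, 13.9, 80.1 and 18.6 CPM in the WT-S libraries and at 5.43, 11.2, 9.09 and 12.6 CPM in the TTP-S libraries, so 2 of the WT-S libraries were high and the other 2 near the TTP-S range (log2 difference -2.83; edgeR adjusted p = 0.216). Part of that difference rests on WT-S 1, the highest library, and no value without it is given for this gene. All 8 genes of MHC class II presentation were lower, with a median of -0.27, and -0.18 without WT-S 1 and -0.13 without TTP-S 4. With the adipose term in 8 libraries 6 of the 8 were lower, with a median of -0.08. Their summed level was 282 to 353 CPM in WT-S and 210 to 303 CPM in TTP-S, with overlap. Jchain, the joining chain of IgA made by plasma cells, was at 8.68, 1.40, 2.90 and 2.61 CPM in the WT-S libraries and at 0.243, 0.0823, 0.395 and 0.443 CPM in the TTP-S libraries. The groups did not overlap (log2 difference -3.74; edgeR adjusted p = 0.0828, 0.0205 and 0.0471 in 16, 14 and 8 libraries). Without WT-S 1 the log2 difference was -3.00, with an edgeR adjusted p of 0.218 in the 16-library fit and 0.0358 in the 8-library fit. Of the 8 fits of S libraries that each left out 1, Jchain passed in 2, without WT-S 1 and without WT-S 2, and the highest edgeR adjusted p was 0.154, without TTP-S 2. Over 4 tested genes of B and plasma cells, Jchain among them, the median was -0.30, and with 1 library left out it ranged from -0.65, without TTP-S 2, to -0.09, without WT-S 1. Of 15 macrophage genes 11 were lower, with a median of -0.08, and none passed. The direction of that list was not stable, since the median was 0.007 without TTP-S 4, and with the adipose term in 8 libraries 12 of the 15 were higher, with a median of 0.27, and Itgam passed as higher. The summed neutrophil markers were at 1.54 to 2.71 CPM in WT-S and 2.85 to 7.90 CPM in TTP-S, near the limit of detection, and none passed.

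**Figure D5:**
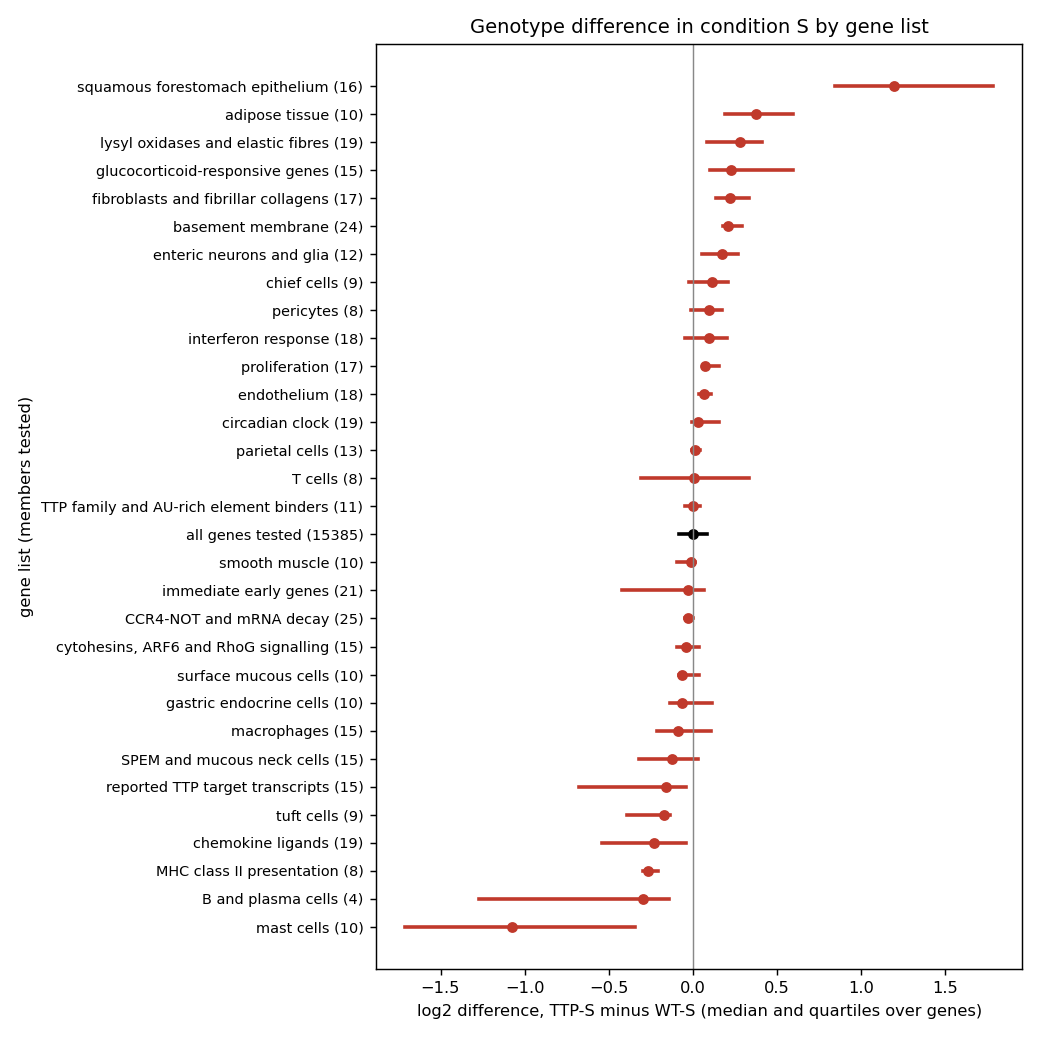
Median (points) and quartiles (bars) of the log2 difference between TTP-S and WT-S over the tested members of each gene list with at least 4, with all 15385 genes in black. The squamous list lies furthest to the right of all genes tested, followed by the adipose, matrix and glucocorticoid lists, and the mast cell, B and plasma cell, MHC class II and chemokine lists lie furthest to the left.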

How the data were processed

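The deposited table holds gene counts, 1 column per library, whose unit was read from the whole-number values. Per the submitters' processing notes, the tools were STAR 2.7.0f, featureCounts, Subread 1.6.4 and DESeq2 and the build was mm10; the role of each tool, the strand setting and the annotation are not given in the sources used here, so overlapping or antisense genes may share counts. Per the labels' protocols, RNA was extracted in TRIzol and libraries were made with the Illumina TruSeq RNA kit. Groups were taken from the sample labels.

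Genes were filtered with edgeR's filterByExpr on the 4 groups, scaled by TMM and tested with edgeR 4.0.16 (glmQLFit and glmQLFTest, R 4.3.3). P-values were adjusted with the Benjamini-Hochberg method over all 15385 genes. The fits of 14 and 8 libraries used the same genes. Standard errors are the log2 difference divided by the square root of F. Data were also simulated for this contrast with all 15385 genes. There the 16-library fit recovered 73 of 100 genes changed by 0.5 on the log2 scale and 91 of 100 changed by 1. It made 8 false calls. These shares were not split by level of expression. They describe the simulated data and do not give the power of the fit on the measured libraries. In those, 5 genes passed, and Eln, at a log2 difference of 0.82, did not (edgeR adjusted p = 0.0544). The 3′ UTRs and motifs came from GENCODE M21, whose symbols matched 24423 of the 24964 genes. Alternatives used DESeq2 1.42.0 and limma 3.58.1.

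Genes were named by a rule: Zfp36, every gene that passed in 16 libraries, the 10 largest differences in each direction among genes that passed in 14 libraries, the 10 smallest p in each direction among those not passing in 16 (each with a mean of at least 1 CPM and no overlap), and members of 35 gene lists; 1 gene that the rule names is not reported here. The members and lists were chosen with earlier results of these data known. Plod2, Adamts2 and Igf1 were chosen after their values were seen. Lists are described by counts and medians, with no test.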

Additional observations from a re-analysis of the deposited data

Results flagged for a closer look

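In 92 groups of 4 libraries, made of WT-S and TTP-S for each of 46 named genes, 3 held a library that stood apart by Dixon's test at the 95% level, which chance alone gives in about 1 of 20 groups. Muc6 was at 2358 CPM in WT-S 1, against 464 to 779 CPM in the other WT-S libraries. Aqp5 was at 40.5 CPM in WT-S 1, against 5.46 to 10.1 CPM in the others. Pdgfb was at 18.2 CPM in TTP-S 2, against 20.1 to 20.5 CPM in the other TTP-S libraries. For 2 named genes the genotype difference in the A libraries differed from that in the S libraries by edgeR's test of the interaction. The difference was -1.24 for Eln and -2.00 for Dmbt1 on the log2 scale (edgeR adjusted p = 0.035 for both), and 9 of all genes tested (0.0585%) passed that test.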

How the results depend on the processing

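The higher level of Zfp36 passed under 30 of 31 alternatives. Against a minimum log2 difference of 0.5 its value of 0.98 had an edgeR adjusted p of 0.185, and 0 genes passed by that test. The count of 5 genes became 65 in 14 libraries, 42 in 8 libraries, 29 with GC offsets, 100 with DESeq2's Wald test, and 175 and 115 with limma's voom in 16 and 8 libraries. Leaving out 1 library gave 1 to 15 genes in the 16-library fit and 3 to 123 in the 8-library fit (an alternative chosen after seeing the data), the highest without WT-S 2 in both. The lowest came without each of WT-S 3, WT-S 4, TTP-S 2, TTP-S 3 and TTP-S 4 in the former and without WT-S 3 or TTP-S 2 in the latter (58 without WT-S 1 and 39 without TTP-S 1 in that fit). Among other such alternatives, 8 libraries with their own filter gave 60 genes and the adipose term in 8 libraries gave 85. The replicate numbers were shared between groups without pairing the libraries (correlation of same-numbered deviations -0.22, 0.06, -0.29 and -0.10). With the replicate number as a block, 5 genes passed in 16 libraries, of which 2 were among the original 5, and 43 passed in 8 libraries. DESeq2's size factors, no count filter, and 10 counts in 8 libraries kept the count within 1.5 times. Of the other named genes, Hif1a changed sign with the adipose term in 16 libraries (0.024). Zfp36l1 ranged from -0.040 to 0.135 with 1 library left out of 16, and was -0.039 without WT-S 1 in the 8-library fit. Neither gene passed in any of these. At these depths, a difference in Tnf, at under 1 CPM in both groups, could not be resolved.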
